A study of Homo sapiens with 9 samples.

Results

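Fibroblast growth factors (FGFs) are a family of signalling proteins encoded by separate genes, and the transcripts of 10 of them, FGF2, FGF3, FGF4, FGF8, FGF9, FGF10, FGF13, FGF16, FGF17 and FGF19, are described here in human embryonic stem cells (hESCs) at day 0 and after 14 days in a protocol aimed at otic progenitors, which give rise to the inner ear. The members were every probe set on the array whose platform annotation names only one of these genes. This gave 13 probe sets for 10 of the 19775 genes measured. FGF2, FGF4 and FGF9 had 2 probe sets each, and the main one of a pair is that with the higher mean level over the 9 arrays.

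Gene expression was measured on Affymetrix arrays in 3 established hESC lines, Shef3, H14 and Shef1, with 1 array per line in each of 3 groups. Cells of the FGF3+10 group had been plated as dissociated cells on laminin in DFNB, a serum-free N2 and B27 medium, and received recombinant FGF3 and FGF10 at 50 ng/ml each until day 14. The DFNB group had the same plating, medium and 14 days with no added FGF. The hESC group held undifferentiated cells at day 0, grown on inactivated mouse embryonic fibroblasts (feeders) and fed with knockout serum replacement and 4 ng/ml of basic FGF, the protein of the FGF2 gene. The day 0 and day 14 cultures thus differ in feeders, substrate and added FGF2 protein as well as in time, and these cannot be told apart. The arrays read transcripts made by the cells, not the added proteins. Nothing in the labels says that lines were cultured more than once, so each group's spread is that between 3 cell lines, and p-values measure that spread. Values of the 3 arrays of a group are given in the order Shef3, H14, Shef1.

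Most FGFs are secreted and bind FGF receptors, which are receptor tyrosine kinases, together with heparan sulphate. FGF2 protein is a standard additive of hESC medium, where it helps to keep the cells undifferentiated, and FGF4 is made by the pluripotent cells of the early embryo. FGF3, FGF8 and FGF10 are known as inducing signals of the otic placode in vertebrate embryos, FGF19 acts with them in chick, and the endocrine FGF19 of the adult needs a klotho co-receptor. FGF13 belongs to the homologous factors, which are not secreted and bind sodium channels inside the cell.

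Levels are the deposited values on a log scale. No source states its base, so log2 is an assumption and 1 unit is called a log2 unit. The levels have no true zero and no detection calls were used, so a low level cannot be told from background, and levels of different probe sets are not compared with each other. Level 4 serves as a landmark, since 56.6% to 58.0% of the probe sets on each array lay below it. Noise grew towards low levels: the median SD within groups was 0.968 for genes averaging below 0, 0.889 between 0 and 4, 0.505 between 4 and 8, and 0.358 at 8 and above. FGF2 and FGF13 stood above 4 on all 9 arrays, FGF4, FGF9 and FGF19 on 6 each and FGF8 on 2. FGF3, FGF10, FGF16 and FGF17 were below 4 on every array. The 13 measured markers of undifferentiated hESCs averaged 10.00, 9.32 and 8.67 in the hESC group, and all stood above 4 there except ZFP42 in Shef1, at -0.48. On the same arrays 7 endoderm genes averaged 8.53, 7.66 and 7.21, and 9 mesenchyme genes averaged 8.94, 8.95 and 9.20, all above 4. The other cell type lists used below averaged between 1.74 and 5.63 there. The part of feeders or of differentiated cells in the hESC levels was not tested. On the Shef1 arrays the poly-A control transcripts, which are spiked into the RNA, averaged 7.0 to 7.06, against 4.39 to 5.14 on the other arrays.

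The RefSeq promoter table (GRCh38.p14) holds 4 of the 10 genes, FGF2, FGF3, FGF10 and FGF13, with 5 start sites in all, and covers 250 bases before and 50 after each start. The 3 below are shown because FGF2 and FGF13 were the genes above level 4 on every array and FGF3 was below 0 on every array. Capitals mark matches, on either strand, to 5 motifs: TATAAA for the core promoter box, CCAAT for the box bound by NF-Y, GGGCGG for the GC box, ATGCAAAT for the POU octamer and ACAAAG for the SOX core. Matches to different motifs did not overlap.
FGF2, chr4:122826581-122826880, plus strand: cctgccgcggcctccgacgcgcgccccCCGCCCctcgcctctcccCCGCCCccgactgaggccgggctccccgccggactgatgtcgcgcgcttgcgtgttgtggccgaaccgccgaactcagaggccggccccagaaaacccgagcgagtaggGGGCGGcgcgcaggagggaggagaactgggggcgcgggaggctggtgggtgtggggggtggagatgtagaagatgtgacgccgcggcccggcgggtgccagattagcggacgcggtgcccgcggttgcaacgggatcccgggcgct
FGF13, first start, chrX:139204974-139205273, minus strand: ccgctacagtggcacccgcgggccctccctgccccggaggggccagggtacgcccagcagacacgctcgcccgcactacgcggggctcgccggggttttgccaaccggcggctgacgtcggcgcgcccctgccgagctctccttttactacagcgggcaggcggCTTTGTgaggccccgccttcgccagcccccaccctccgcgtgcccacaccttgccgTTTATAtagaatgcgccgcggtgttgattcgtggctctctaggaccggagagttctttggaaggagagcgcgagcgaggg
FGF3, chr11:69819367-69819666, minus strand: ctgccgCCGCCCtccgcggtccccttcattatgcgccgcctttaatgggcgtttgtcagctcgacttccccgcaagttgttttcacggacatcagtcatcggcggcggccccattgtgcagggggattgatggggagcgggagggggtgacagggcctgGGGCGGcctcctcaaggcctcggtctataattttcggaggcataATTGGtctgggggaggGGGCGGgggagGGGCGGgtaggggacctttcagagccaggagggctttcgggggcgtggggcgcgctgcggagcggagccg

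The FGF2 window held 3 GC boxes and that of FGF3 held 4 GC boxes and 1 NF-Y box, while 45.0% of the 35116 promoters in the table hold a GC box and 34.6% an NF-Y box. The first FGF13 start had 1 core promoter box, found in 11.5% of promoters, and 1 SOX core, found in 16.1%. No POU octamer, found in 1.77% of promoters, was matched in these windows. CpG dinucleotides numbered 41 in the FGF2 window, 34 at the first FGF13 start and 26 in that of FGF3, against a median of 14 over the table. The second FGF13 start had 0 and FGF10 had 13, and neither window matched any of the 5 motifs. A match to these letters is a description and not a binding site.

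The first question is what happened to these transcripts over 14 days away from hESC conditions. FGF9 rose: the average of both day 14 groups exceeded the hESC level by 3.0 ± 0.55 log2 units (SE, n = 6 and 3 arrays, limma adjusted p = 0.0455). The call stood close to the threshold and was lost without any 1 line (adjusted p = 0.0661 to 0.373). Without Shef3, H14 and Shef1 those fits called 4, 1 and 5 of all 19775 genes, against 277 in the main fit. The loss is thus not particular to FGF9. In the main fit no other ligand gene passed for both day 14 groups together. On average 8 of the 10 were lower at day 14, with FGF17, FGF16, FGF2, FGF4 and FGF19 each lower by more than 1.5 units. The median change over the 10 genes was -1.50, against -0.19 over all genes. A sign of RNA quality differed between the same groups: the GAPDH signal of the 3′ probe set minus that of the 5′ one was 0.309, 0.141 and 0.196 in FGF3+10 and 0.207, 0.182 and 0.180 in DFNB, against 0.529, 0.233 and 0.235 in hESC. It was higher in hESC in each line, and its part in the ligand changes was not tested. The 1 of 10 called compares with 1.4% of all genes, and 5 of the 10 had an unadjusted p below 0.05, against 18.2% of all genes. Because the genes were chosen with earlier results of these data known, these counts are a description.

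Taken singly, neither medium called a ligand gene. In FGF3+10 against hESC, limma called 0 of the 10, with adjusted p between 0.106 and 0.936, where 0.177% of all genes were called. At an unadjusted p below 0.05 there were 4 of the 10, 1 higher and 3 lower, against 12% of all genes. In DFNB against hESC, limma called 0 of the 10, with adjusted p between 0.104 and 0.793, where 0.202% of all genes were called. Here 6 of the 10 had an unadjusted p below 0.05, 1 higher and 5 lower, against 15.8% of all genes. The 2 comparisons share their hESC arrays, so they are not independent of each other. The plot of levels on every array shows the main probe sets.

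**Figure D1:**
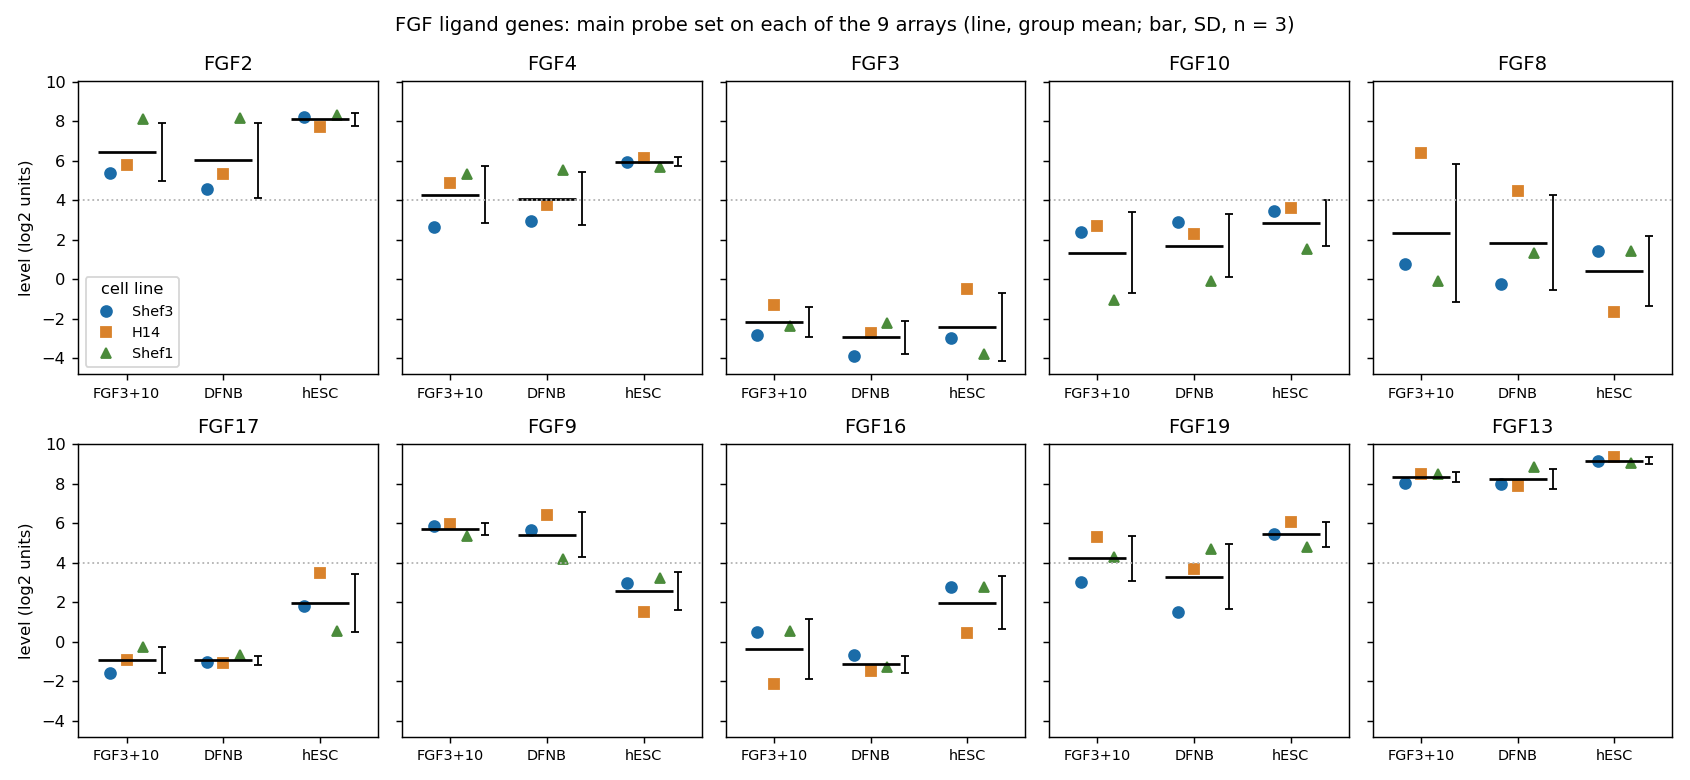
Level in log2 units (y axis) of the main probe set of each FGF ligand gene on the 9 arrays, by group (x axis). Circles are Shef3, squares H14 and triangles Shef1, horizontal lines are group means, bars are SDs (n = 3) and the dotted line marks level 4. In FGF9 the FGF3+10 arrays at 5.37 to 5.96 and the DFNB arrays at 4.20 to 6.41 lie above the hESC arrays at 1.5 to 3.23, and in FGF8 only the H14 arrays of day 14, at 6.36 and 4.46, lie above level 4.

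FGF2, the ligand of hESC medium, was close to uniform in the undifferentiated lines and differed between them at day 14. Its main probe set stood at 5.37, 5.78 and 8.10 in FGF3+10, at 4.59, 5.31 and 8.17 in DFNB, and at 8.23, 7.72 and 8.31 in hESC. Shef3 and H14 were lower at day 14 in both media, while the Shef1 arrays of day 14 lay within the range of the hESC group, so the groups overlapped. The change was -1.67 ± 0.99 in FGF3+10 (SE, n = 3 and 3, adjusted p = 0.544) and -2.07 ± 0.99 in DFNB (adjusted p = 0.349). Its size depended on the line, at -1.08 and -1.28 without Shef3, and on the Shef1 array of day 14, without which it was -2.51 in FGF3+10 and -3.14 in DFNB. The other FGF2 probe set read 3.97, 5.16 and 6.84 in FGF3+10, 2.78, 3.81 and 6.62 in DFNB, and 8.15, 8.30 and 7.81 in hESC. On that probe set all 6 day 14 arrays were below all 3 hESC arrays, with changes of -2.76 ± 1.00 and -3.69 ± 1.00 for FGF3+10 and DFNB (adjusted p = 0.393 and 0.206 over all probe sets). The 2 probe sets ordered the lines alike at day 14, Shef3 lowest and Shef1 highest, and their levels correlated at r = 0.944 over the 9 arrays.

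FGF4, the ligand of the pluripotent epiblast, followed the same order of lines. It stood at 2.66, 4.85 and 5.33 in FGF3+10, at 2.95, 3.76 and 5.53 in DFNB, and at 5.95, 6.15 and 5.70 in hESC. Both day 14 groups lay below the hESC group without overlap, with changes of -0.37 and -0.17 in Shef1 but -3.29 and -3.0 in Shef3. The fitted change was -1.65 ± 0.81 in FGF3+10 (adjusted p = 0.459) and -1.85 ± 0.81 in DFNB (adjusted p = 0.313), and without the Shef3 array of FGF3+10 the change there was -0.84. Its other probe set lay between -2.06 and -0.32 on all 9 arrays, with changes of 0.58 ± 0.56 and -0.25 ± 0.56 (adjusted p = 0.785 and 0.890). The FGF4 values therefore come from 1 of its 2 probe sets, and the pair correlated at r = -0.031.

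FGF3 and FGF10 are the ligands whose proteins were added, and both act mainly through the epithelial form of FGF receptor 2. The endogenous FGF3 transcript was below level 0 on all arrays, at -2.82, -1.32 and -2.39 in FGF3+10, at -3.89, -2.75 and -2.22 in DFNB, and at -2.97, -0.51 and -3.80 in hESC. These values lay between the 1.1 and 15.8 percentiles of the probe sets on their arrays. The changes were 0.25 ± 0.85 in FGF3+10 and -0.53 ± 0.85 in DFNB (adjusted p = 0.936 and 0.793), with the groups overlapping. Their signs rest on single lines: without Shef1 the FGF3+10 change was -0.33 and without H14 the DFNB change was 0.32. FGF10 stood at 2.41, 2.67 and -1.04 in FGF3+10, at 2.91, 2.28 and -0.12 in DFNB, and at 3.43, 3.59 and 1.52 in hESC. It was lower at day 14 in every line and medium, by -1.50 ± 1.15 in FGF3+10 and -1.15 ± 1.15 in DFNB (adjusted p = 0.642 and 0.650), while all of its levels were below 4. With the cell line as a replicate block the SE of both changes was 0.40, and limma's adjusted p was 0.157 and 0.179. For both day 14 groups together the block gave an adjusted p of 0.0950, so FGF10 did not pass there either. The fits that follow are without the block. The change was -0.30 without the FGF3+10 array of Shef1 and -0.25 without the DFNB array of Shef1. Those fits kept the hESC array of Shef1, which was low, at 1.52. With the whole Shef1 line left out, the changes were -0.97 in FGF3+10 and -0.91 in DFNB. Cells given FGF3 and FGF10 protein thus showed no transcript of either gene above level 4 at day 14.

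FGF8 and FGF17 belong to one subfamily, whose members pattern the primitive streak and the border of midbrain and hindbrain. FGF8 stood at 0.77, 6.36 and -0.08 in FGF3+10, at -0.26, 4.46 and 1.33 in DFNB, and at 1.44, -1.64 and 1.41 in hESC. H14 was the only line with FGF8 above level 4, and only at day 14, with changes of 8.0 in FGF3+10 and 6.10 in DFNB. In Shef3 and Shef1 the changes lay between -1.70 and -0.07. The means over lines, 1.95 ± 1.83 in FGF3+10 and 1.44 ± 1.83 in DFNB (adjusted p = 0.706 and 0.732), were -1.08 and -0.88 without H14. With values below 4 set to 4 they were 0.79 and 0.15. In H14 the 6 measured genes of midbrain and hindbrain averaged 2.29 in FGF3+10 and 4.17 in DFNB, against 2.44 in hESC. The 8 genes of primitive streak and mesoderm averaged 4.21 and 3.82 in the same H14 cultures, against 5.09 in hESC. The part of either cell type in the FGF8 level was not tested.

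FGF17 was lower at day 14 on every array, although its levels were low throughout and its change did not pass. It stood at -1.58, -0.90 and -0.28 in FGF3+10, at -1.03, -1.09 and -0.68 in DFNB, and at 1.83, 3.48 and 0.57 in hESC. The groups did not overlap. The change was -2.88 ± 0.68 in FGF3+10 and -2.89 ± 0.68 in DFNB (adjusted p = 0.142 and 0.117), and -2.89 ± 0.59 for both day 14 groups together (adjusted p = 0.0572). With array weights these passed, with adjusted p of 0.0386, 0.0198 and 0.0130. That setting called 284, 1612 and 1408 of all 19775 genes in the same comparisons, against 35, 40 and 277 in the main fit. The estimation of the weights stopped before its tolerance was met. All of the FGF17 levels were below 4, the range where noise was largest.

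FGF9 and FGF16 form another subfamily, and FGF9 is known as a secreted ligand of neurons and other embryonic tissues. The main FGF9 probe set stood at 5.85, 5.96 and 5.37 in FGF3+10, at 5.68, 6.41 and 4.20 in DFNB, and at 3.0, 1.5 and 3.23 in hESC. All 6 day 14 arrays were above all 3 hESC arrays, which was so for 4.23% of genes. The change was 3.15 ± 0.64 in FGF3+10 and 2.85 ± 0.64 in DFNB (adjusted p = 0.106 and 0.104), and the DFNB change was 1.83 without H14. The other FGF9 probe set read 5.02, 5.19 and 5.09 in FGF3+10, 4.95, 4.94 and 4.60 in DFNB, and 3.91, 3.19 and 2.68 in hESC. It moved the same way, by 1.84 ± 0.38 and 1.57 ± 0.38 in FGF3+10 and DFNB (adjusted p = 0.151 and 0.168 over all probe sets), and without overlap with hESC. The 2 probe sets correlated at r = 0.867, and for both day 14 groups together they had an adjusted p of 0.0658 and 0.0699 over all probe sets, where 0.478% of probe sets were called. In the single media the called share of probe sets was 0.0439% for FGF3+10 and 0.106% for DFNB, against hESC. The FGF9 call over genes was lost with the cell line as a replicate block (adjusted p = 0.0528) and with values below 4 set to 4, where the change was 1.58 (adjusted p = 0.0879). Without Shef3 its adjusted p was 0.325, without H14 0.373 and without Shef1 0.0661. Of the 9 fits without a single array, the call held in that without DFNB Shef1 (adjusted p = 0.0373), and in the other 8 the adjusted p lay between 0.0594 and 0.145. These 9 fits called between 35 and 238 of all 19775 genes, against 277 in the main fit.

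FGF16 stood at 0.49, -2.12 and 0.53 in FGF3+10, at -0.66, -1.48 and -1.25 in DFNB, and at 2.75, 0.43 and 2.78 in hESC. It was lower in every line and medium, with changes between -4.03 and -1.91 and no level above 4 in any group. The change was -2.35 ± 0.85 in FGF3+10 and -3.12 ± 0.85 in DFNB (adjusted p = 0.325 and 0.157). In FGF3+10 it was -1.47 without the H14 array of that group, a fit that kept the low H14 array of hESC. With the whole H14 line left out it was -2.25. For both day 14 groups together it was -2.74 ± 0.74 (adjusted p = 0.116), and this passed with the cell line as a replicate block (adjusted p = 0.0335), where 3.09% of all genes were called.

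FGF19, the endocrine member, stood at 3.03, 5.32 and 4.31 in FGF3+10, at 1.5, 3.70 and 4.72 in DFNB, and at 5.45, 6.09 and 4.80 in hESC. Shef1 again moved least, by -0.49 and -0.08, and Shef3 most, by -2.41 and -3.95. The change was -1.22 ± 0.86 in FGF3+10 and -2.14 ± 0.86 in DFNB (adjusted p = 0.611 and 0.288), and only the DFNB arrays lay below the hESC arrays without overlap. Without the Shef3 array of day 14 these changes were -0.63 and -1.24. FGF13, the intracellular member, stood at 8.03, 8.51 and 8.49 in FGF3+10, at 8.0, 7.89 and 8.84 in DFNB, and at 9.14, 9.35 and 9.03 in hESC. All day 14 arrays lay below all hESC arrays, by -0.83 ± 0.34 in FGF3+10 and -0.93 ± 0.34 in DFNB (adjusted p = 0.377 and 0.251). The FGF13 array values stood between the 87.9 and 95 percentiles of the probe sets on their arrays and above level 4 in every culture. Such a rank describes the signal of the probe set and not the amount of transcript.

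Across the 10 genes, 3 lay lower without overlap in FGF3+10 (FGF4, FGF17 and FGF13) and 1 higher (FGF9), where 11.3% of all genes lay lower and 5.68% higher without overlap. In DFNB the 5 lower genes were FGF4, FGF17, FGF16, FGF19 and FGF13 and the 1 higher gene was FGF9, where 14.3% and 7.8% of all genes did so. Taking both day 14 groups together against hESC, the 3 lower genes were FGF4, FGF17 and FGF13, and 8.02% of all genes lay lower without overlap. With the cell line as a replicate block 0.582% of all genes were called in FGF3+10 and 0.956% in DFNB, and 0 of the 10 in either. The plot of changes by line and medium shows this pattern beside the spread between lines.

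**Figure D2:**
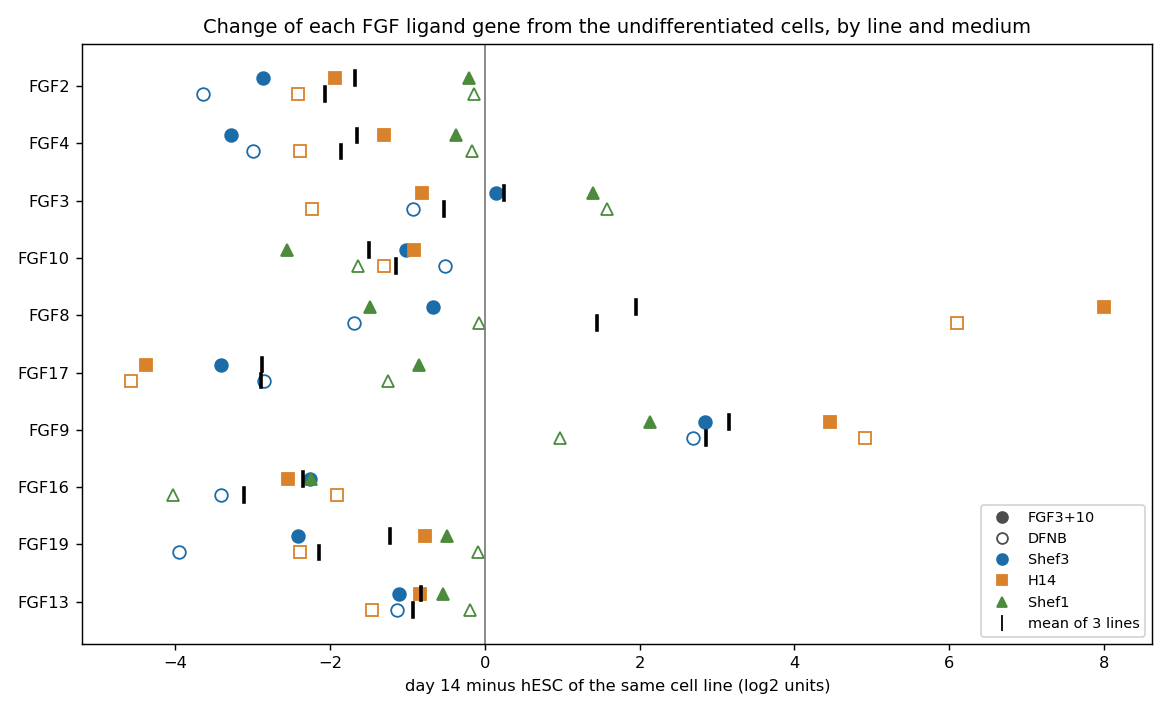
Main probe set level at day 14 minus the same line's hESC level, in log2 units (x axis), for each FGF ligand gene (y axis). Filled symbols are FGF3+10 and open symbols DFNB, circles are Shef3, squares H14 and triangles Shef1, and black ticks are the means of the 3 lines. The FGF9 changes all lie above 0, between 0.97 and 4.91, the FGF2 changes of Shef1 at -0.21 and -0.13 lie near 0, and the FGF8 changes of H14 at 8.0 and 6.10 stand apart from those of the other lines.

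**Figure D3:**
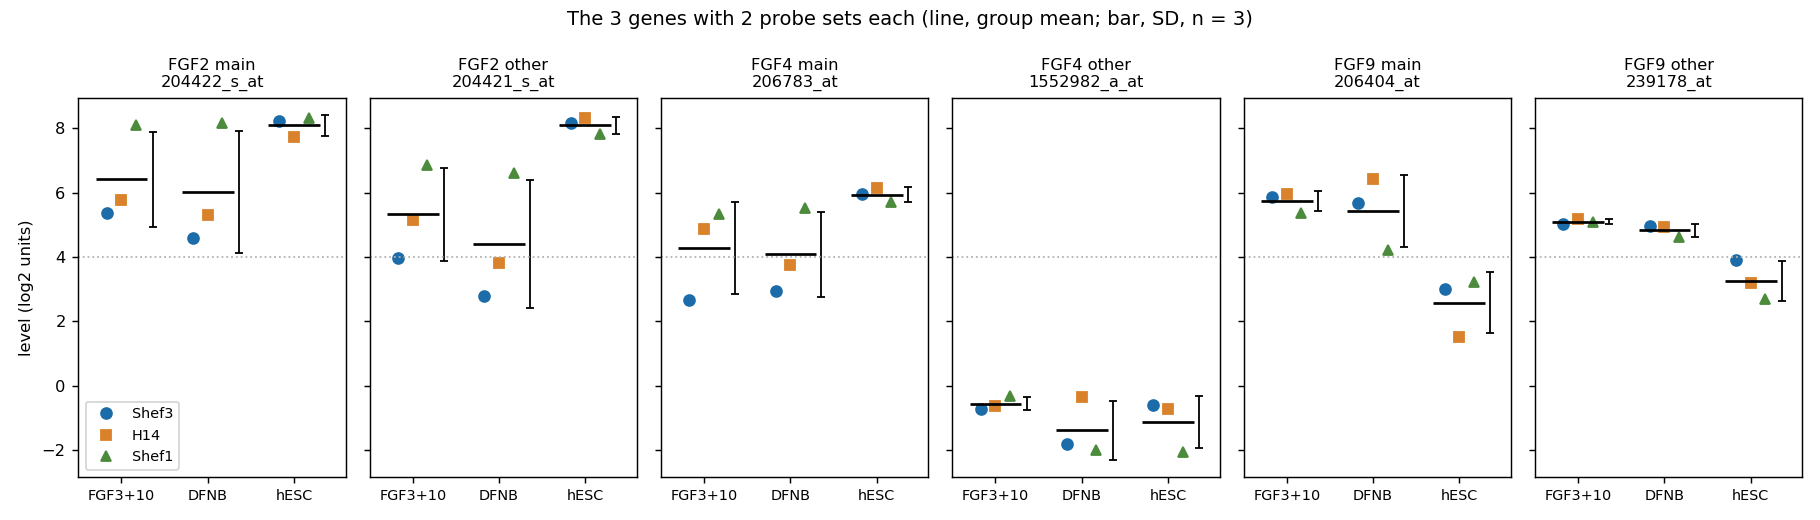
Level in log2 units (y axis) of both probe sets of FGF2, FGF4 and FGF9 by group (x axis), with symbols for cell lines, lines for group means and bars for SDs (n = 3) and the dotted line at level 4. The FGF2 and FGF9 pairs show the same direction, while the other FGF4 probe set stays between -2.06 and -0.32 in every group.

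The second question is whether added FGF3 and FGF10 proteins changed the cells' own FGF transcripts. In FGF3+10 against DFNB, limma called 0 of the 10 genes and 0% of all 19775. None of the 10 had an unadjusted p below 0.05, where 1.52% of all genes did. On the main probe sets no ligand gene had the same sign in all 3 lines. None of these separated the groups without overlap, as 3.18% of all genes did. The differences ran from -0.34 ± 1.15 for FGF10 to 0.92 ± 0.86 for FGF19, and 9 of the 10 were above 0. That count rests on single arrays: it was 5 without the H14 line and 5 without the DFNB array of Shef3. In the other fits without an array or line it was 7 to 9. FGF10, whose protein was added, differed by -0.34 with a 95% interval of -2.97 to 2.28, and FGF3 by 0.77 with an interval of -1.16 to 2.71. The intervals here come from the fit without the cell line. With the line as a replicate block the SE was 0.40 in place of 1.15 for FGF10 and 0.66 in place of 0.85 for FGF3. For FGF9 and FGF17 it rose slightly, to 0.68 and 0.70. The narrowest interval was that of FGF13, -0.67 to 0.87 around 0.10, and the widest that of FGF8, -3.67 to 4.68 around 0.51. FGF19 was higher with added FGFs by 1.53 in Shef3 and 1.63 in H14 and lower by 0.41 in Shef1. FGF16 was higher by 1.15 in Shef3 and 1.78 in Shef1 and lower by 0.64 in H14. The other FGF9 probe set was higher in FGF3+10 in every line, by 0.07 to 0.49, with no overlap between the groups (adjusted p = 1). The other FGF2 probe set was also higher in every line, by 1.19, 1.35 and 0.23, but its groups overlapped and it did not pass. With 3 arrays a group, intervals of this width leave room for differences of more than 1 unit in all of these genes except FGF13.

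**Figure D4:**
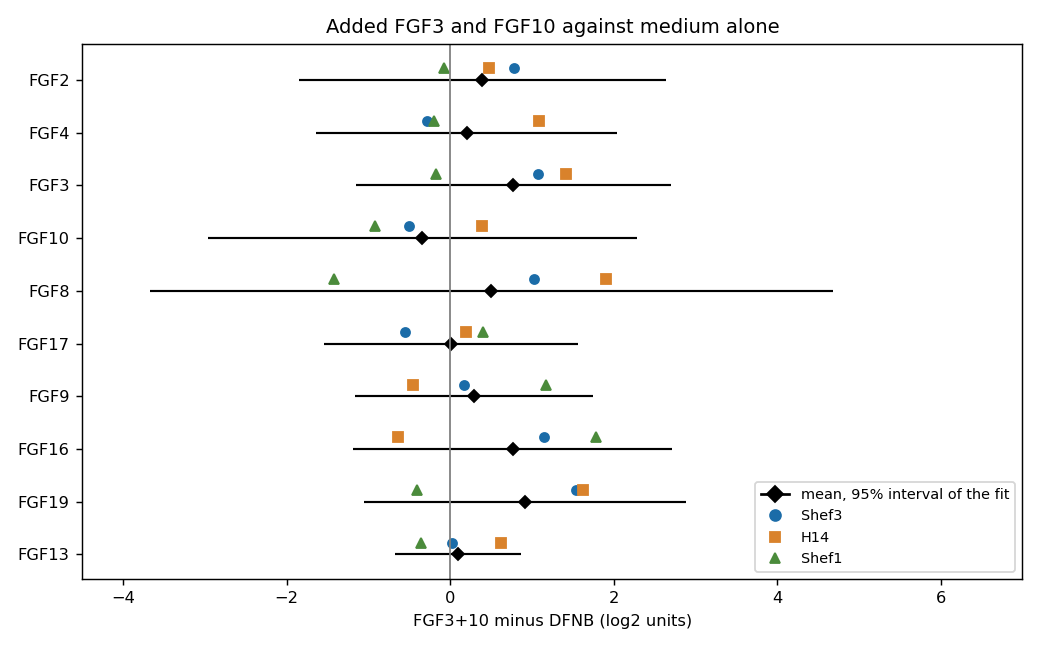
FGF3+10 minus DFNB in log2 units (x axis) for each FGF ligand gene (y axis). Diamonds are the means with the 95% interval of the fit over all 9 arrays, and coloured symbols are the 3 cell lines. All 10 intervals include 0, from the narrowest for FGF13 (-0.67 to 0.87) to the widest for FGF8 (-3.67 to 4.68).

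The third question is how the lines differ. In a model of group and line, limma's moderated F test called 0 of the 10 ligand genes for a difference between lines, where 0.46% of all genes were called. At an unadjusted p below 0.05 there were 3 (FGF10, FGF16 and FGF2), where 20.3% of all genes passed. FGF10 came nearest, with means over the 3 groups of 2.91 for Shef3, 2.84 for H14 and 0.12 for Shef1 (adjusted p = 0.0594). Its highest Shef1 value, 1.52, was below the lowest of the other lines, 2.28. FGF10 passed with an intensity trend and robust prior (adjusted p = 0.0374) and in the fit on the mean of probe sets (adjusted p = 0.0452). Those settings called 616 and 217 of all 19775 genes between lines, against 91 in the main fit. The poly-A control transcripts also set Shef1 apart from the other lines, and their part in the FGF10 level was not tested. FGF16 was lowest in H14, at a mean of -1.06 against 0.86 in Shef3 and 0.69 in Shef1 (adjusted p = 0.146), and FGF2 highest in Shef1, at 8.19 against 6.06 and 6.27 (adjusted p = 0.190).

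The size of the day 14 change differed between lines in several genes. Averaged over both media, FGF2 changed by -3.25 in Shef3, -2.18 in H14 and -0.17 in Shef1. FGF4 gave -3.14, -1.84 and -0.27 in the same order, FGF19 gave -3.18, -1.58 and -0.29, and FGF17 gave -3.13, -4.48 and -1.05. FGF16 ran otherwise, with -2.84, -2.23 and -3.14, and so did FGF10 with -0.77, -1.11 and -2.10. Of the 7 ligand genes that were lower in all 3 lines, 5 had their smallest change in Shef1. Of the 5174 genes measured here that were lower in all 3 lines, 62.7% did, so the share among the ligand genes is near that of all genes. A test of the difference between lines, chosen after seeing the data and resting only on the 2 media of each line for its spread, called 0 of the 10 genes and 0% of all genes. At an unadjusted p below 0.05 it gave 5 of the 10 (FGF17, FGF8, FGF2, FGF9 and FGF4), where 19.4% of all genes passed, and the adjusted p of these 5 lay between 0.203 and 0.233.

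Markers of undifferentiated cells moved with these changes. The 13 markers averaged 2.10, 7.28 and 7.56 in FGF3+10 and 1.66, 6.0 and 7.65 in DFNB, against 10.00, 9.32 and 8.67 in hESC. In the order Shef3, H14 and Shef1, 5, 11 and 12 of the 13 stood above 4 in FGF3+10 and 6, 9 and 12 in DFNB, against 13, 13 and 12 in hESC. NANOG and PRDM14 were below 0 in the Shef3 day 14 cultures and above 2.9 in those of H14 and Shef1. None of the 13 passed in any comparison with limma, although 7 had an unadjusted p below 0.05 for both day 14 groups together, against 18.2% of all genes. The largest changes there were those of NANOG, at -8.18 ± 4.83 (adjusted p = 0.405), and LEFTY1, a Nodal inhibitor, at -7.23 ± 1.91 (adjusted p = 0.110). LEFTY1 passed with the cell line as a replicate block (adjusted p = 0.0400). FGF2, FGF4 and FGF19 were thus lowest in the Shef3 cultures, where these markers were lowest. The part of undifferentiated cells left at day 14 in the ligand levels was not tested. In bulk samples such as these, fewer cells of a type and less RNA per cell cannot be told apart.

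**Figure D5:**
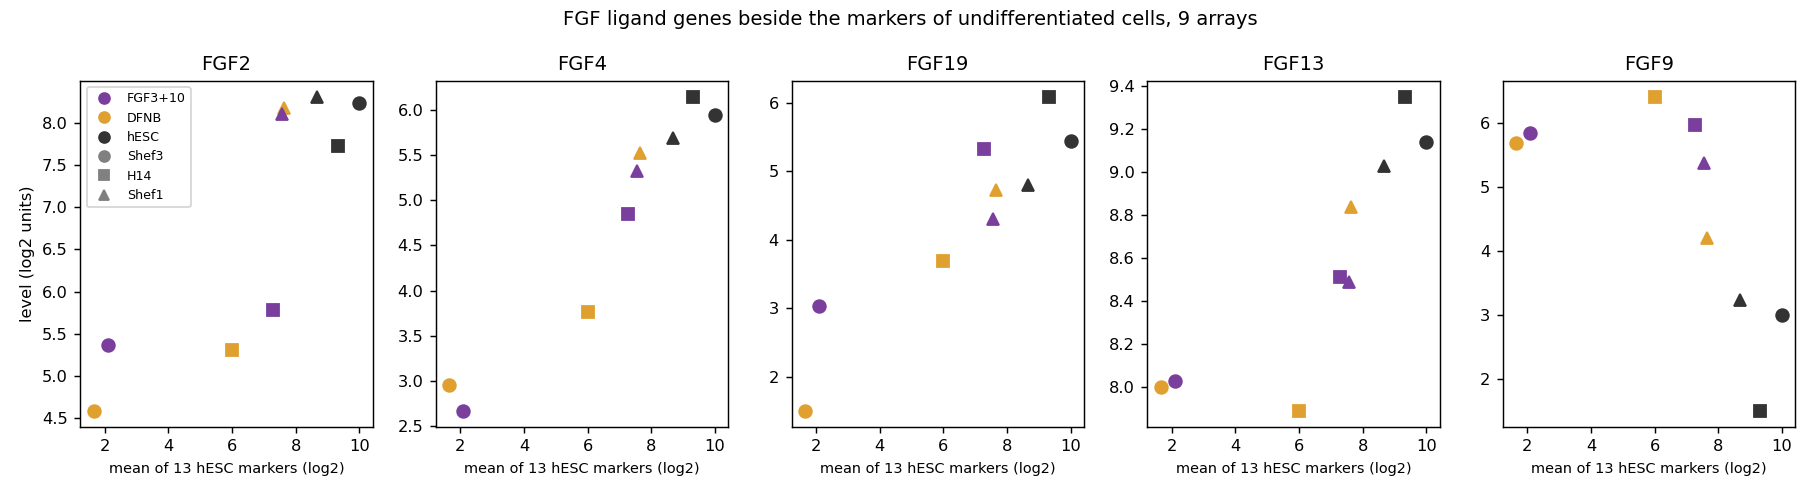
Level in log2 units (y axis) of FGF2, FGF4, FGF19, FGF13 and FGF9 against the mean level of 13 markers of undifferentiated hESCs (x axis, log2 units) on the 9 arrays. Colours are the groups and shapes the cell lines. The Shef3 arrays of day 14, at marker means of 2.10 and 1.66, hold FGF4 at 2.66 and 2.95, and the Shef1 arrays of day 14, at 7.56 and 7.65, hold it at 5.33 and 5.53, near the hESC arrays.

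FGF4 levels correlated over the 9 arrays with those of FGF13 (r = 0.920), FGF2 (r = 0.902) and FGF19 (r = 0.885). These 9 arrays share groups and lines, and the values are a description. Among 12307 other genes with a group mean of 4 or above, those most like FGF2 were MOB1B, NUS1 and GRPEL2 (r = 0.988 to 0.991), and those most like FGF4 were MTARC1, MBD2 and KRTCAP3 (r = 0.988 to 0.990). For FGF9 they were STMN3, CORO1A and TTLL7 (r = 0.957 to 0.961), for FGF19 EPHX3, P2RX5 and LINC01356 (r = 0.951 to 0.972), and for FGF13 PGK2, ZNF426-DT and FUOM (r = 0.969 to 0.981).

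The rest of the pathway was taken from gene lists. None of the other 12 FGF genes passed in any comparison. For both day 14 groups together 3 of them had an unadjusted p below 0.05, against 18.2% of all genes. With the cell line as a replicate block FGF21 passed there (change -1.33, adjusted p = 0.0482), where 3.09% of all genes were called. The median day 14 change of the other 12 FGF genes over both media was -0.24, against -1.50 for the 10 genes described here and -0.19 over all genes. The 10 were chosen with earlier results of these data known, so this contrast is a description. Among the other 12, FGF23 and FGF22 had the largest changes, at -2.02 ± 0.73 and -1.70 ± 0.49 (adjusted p = 0.209 and 0.131), both at levels below 4. Of 7 receptors and klothos none passed, and 3 had an unadjusted p below 0.05 for both day 14 groups together, all lower. FGFR4, a receptor for FGF19, stood at 4.92 ± 1.07 in FGF3+10 and 3.83 ± 1.46 in DFNB, against 6.91 ± 0.79 in hESC (SD, n = 3, adjusted p = 0.122 for both day 14 groups together). KLB, the co-receptor of FGF19, stood at 3.26 ± 0.56 and 2.70 ± 0.45, against 4.44 ± 0.43 (adjusted p = 0.0896). Of 16 measured feedback regulators and ETS targets of FGF signalling none passed, and their median change was -0.11. DUSP5, a phosphatase that acts on ERK, and SPRY4, a Sprouty inhibitor, had the largest changes there, at -1.42 ± 0.46 and -1.40 ± 0.71 (adjusted p = 0.165 and 0.334). In FGF3+10 against DFNB, where 50 ng/ml of each protein had been added, the median over these 16 targets was 0.07, and none had an unadjusted p below 0.05.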

How the data were processed

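The authors deposited 1 table of log2 values (the base is assumed) for 54675 probe sets on 9 arrays. The deposited log2 values share a median of 3.20 on every array, and the software, background correction and probe summary are not named in the labels used here. Labelling started from 200 ng of RNA, per the labels' protocols. Of the probe sets, 41091 had 1 gene symbol, 1801 several and 11721 none, besides 62 controls. Symbols came from the platform annotation, updated through Entrez identifiers (41037 matched), and 19775 genes were each represented by the probe set with the highest mean.

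Tests used limma 3.58.1 under R 4.3.3 (lmFit, eBayes, group means, 1 spread over 9 arrays), with Benjamini-Hochberg adjustment over all genes and a call below 0.05. The script was tested on simulated data. Members, lists and comparisons were chosen with earlier results of these data known. All 10 genes are named. Of each list, called genes or the 2 with the largest day 14 change are named. PRDM14, ZFP42 and other list genes that differ from these are named after their values were seen. Likeness is given by the 3 genes with the highest r, among genes with a group mean of 4 or above. The cell line label pairs the arrays: deviations from group means correlated within lines at 0.181 to 0.283 (FGF3+10 and hESC), 0.086 to 0.338 (DFNB and hESC) and 0.331 to 0.713 (FGF3+10 and DFNB). Arrays have no read depth, and their number limits precision. Alternatives were a replicate block, quantile normalisation, the mean of probe sets, a filter and a floor at level 4, array weights, another prior and leaving out arrays or lines.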

Additional observations from a re-analysis of the deposited data

Results flagged for a closer look

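FGF8 moved in opposite directions between lines: both day 14 arrays of H14 were above its hESC array, and both of Shef3 and both of Shef1 were below theirs. The mean day 14 change in H14 exceeded that in Shef3 by 8.23 and that in Shef1 by 7.83 log2 units. For FGF3, both day 14 arrays of Shef1 were above its hESC array and both of H14 below, a difference of 3.01 units at levels below 0. The test of a difference between the 3 lines gave an adjusted p of 0.203 for FGF8 and 0.313 for FGF3, so neither passed.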

How the results depend on the processing

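The cell line as replicate block changed 2 calls among the ligand genes, FGF9 and FGF16 for both day 14 groups together as given above, and left the count there at 1. No ligand gene was called in the other group comparisons with the block. The number of ligand genes called was 2 in FGF3+10 against hESC (FGF17 and FGF9), 3 in DFNB against hESC (FGF17, FGF9 and FGF13), 3 for both day 14 groups together and 4 between lines (FGF2, FGF4, FGF10 and FGF16) with array weights, whose estimation stopped before its tolerance was met. It was 0 for both day 14 groups with values below 4 set to 4, 0 to 1 when an array or line was left out, and 1 between lines (FGF10) with the mean of probe sets or the other prior. Between lines, calls over all 19775 genes numbered 91. They were 4475 with array weights, 217 with the mean of probe sets and 616 with the other prior. Over all genes, calls in FGF3+10 against hESC numbered 35, and 115 with the block, 94 without dim genes, 123 with the floor, 284 with array weights and 81 with the other prior. In DFNB against hESC the same settings gave 189, 177, 183, 1612 and 161 beside 40, and for both day 14 groups 612, 487, 479, 1408 and 464 beside 277. Leaving out a line or array turned the sign of some differences that passed no test. In FGF3+10 against DFNB the ranges were -0.45 to 1.47 for FGF2, -0.36 to 1.01 for FGF4, -1.50 to 1.81 for FGF8, -0.32 to 0.78 for FGF9, -1.24 to 0.85 for FGF10, -0.16 to 0.40 for FGF13 and -0.31 to 0.35 for FGF17. Against hESC, FGF3 ranged from -0.44 to 1.2 in FGF3+10, -1.58 to 0.43 in DFNB and -0.96 to 0.81 in both, and FGF8 from -1.08 to 3.67, -0.88 to 3.01 and -0.98 to 3.14. With array weights FGF3 was at -0.21 in FGF3+10 against hESC and FGF16 at -0.25 in FGF3+10 against DFNB. The cause of these differences was not tested. The day 14 changes of FGF2, FGF4, FGF9, FGF13 and FGF19 kept their direction in every setting run. Those of FGF10, FGF16 and FGF17 did so in every setting that held them, since the filter and the floor at level 4 left these genes out.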

Other observations

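Markers of other cell types were set beside the ligand genes, as the mean of both day 14 groups against hESC, where limma called 1.4% of all genes and 18.2% had an unadjusted p below 0.05. Of 12 measured neural progenitor genes 2 rose, the eye-field transcription factors SIX6 (by 6.75 ± 0.92 log2 units, SE, limma adjusted p = 0.0244) and SIX3 (by 6.58 ± 1.24, adjusted p = 0.0472). The median of the 12 was 1.5, and 4 of them were lower on average, among them ZIC2 at -1.46 (unadjusted p = 0.0354, adjusted p = 0.240). Of 11 otic and preplacodal genes 3 rose, EYA2 by 4.39 ± 0.69, DLX6 by 3.41 ± 0.56 and DLX5 by 3.31 ± 0.61 (adjusted p = 0.0311, 0.0343 and 0.0447). Here the median was 1.53, and 3 of the 11 were lower on average, among them FOXI1 at -1.38 (unadjusted p = 0.0136, adjusted p = 0.165). Of 6 trophoblast genes 1 rose, TFAP2A by 2.61 ± 0.50 (adjusted p = 0.0481), a factor that non-neural ectoderm also uses. These 6 risers had the same direction as FGF9, and their part in its level was not tested. Calls in this comparison were few with a line left out, at 4, 1 and 5 of all 19775 genes without Shef3, H14 and Shef1.

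None of the 8 primitive streak and mesoderm genes, 7 endoderm genes, 6 midbrain and hindbrain genes, 9 mesenchyme genes or 9 neuron genes passed without the cell line as a replicate block. With it, GATA4 and AFP of the endoderm list (adjusted p = 0.0230 and 0.0438) and MESP1 of the streak and mesoderm list (adjusted p = 0.0410) were lower at day 14, and LHX2 of the neural and EYA1 of the otic list were higher (adjusted p = 0.0465 and 0.0363). The block called 3.09% of all genes. Without it, all 7 endoderm genes and 4 of the 8 streak and mesoderm genes had lower values with an unadjusted p below 0.05, against 18.2% of all genes. CER1, a secreted Nodal antagonist, and FOXA2, an endoderm transcription factor, had changes of -6.69 ± 1.99 and -5.25 ± 1.22 (adjusted p = 0.140 and 0.0809). EOMES and GSC, transcription factors of the streak, had -2.86 ± 1.39 and -2.72 ± 0.77 (adjusted p = 0.318 and 0.126).

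The other lists had smaller medians. That of the midbrain and hindbrain genes was 0.17, with GBX2 at 2.99 ± 1.22 and HOXA2 at 0.27 ± 0.41 (adjusted p = 0.247 and 0.776). The neuron genes had a median of 0.60, with ISL1 at 3.40 ± 1.15 and DCX at 3.23 ± 1.11 (adjusted p = 0.180 and 0.185). The mesenchyme genes had a median of -0.12 in FGF3+10 and 0.86 in DFNB against hESC, and 6 of the 9 were lower on average in FGF3+10 and 1 in DFNB. Over both media Shef3 and H14 had medians of 1.35 and 1.23 for these genes, and Shef1 one of -1.10. DCN, a matrix proteoglycan, and PRRX1, a transcription factor of mesenchyme, had the largest changes, at 2.17 ± 0.96 and 1.57 ± 1.09 (adjusted p = 0.280 and 0.477).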
